A study of Homo sapiens with 9 samples.

Results

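The nuclear-encoded subunits of the oxidative phosphorylation system were examined in Huh7, a widely used human liver cancer cell line. Members were taken by name from the deposited gene table: protein-coding genes outside the mitochondrial genome whose symbols follow the subunit series NDUFA, NDUFB, NDUFC, NDUFS and NDUFV, SDHA to SDHD, UQCR, COX4 to COX8, and ATP5F, ATP5M and ATP5P. The rule found 86 of 27421 genes, without reference to their values: 39 for complex I, 4 for complex II, 9 for complex III, 15 for complex IV and 19 for complex V. The symbol pattern leaves out a few nuclear subunits with other names, such as CYC1 and NDUFAB1, which are described with the other pathway genes.

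The study asked whether ZMAT2, a zinc finger protein of the spliceosome, acts on liver cancer cells through splicing. RNA was sequenced from 9 libraries, 3 from cells of the arm named shZMAT2-1, 3 from the arm named shZMAT2-2 and 3 from control Huh7 cells. Names beginning with sh usually denote a short hairpin RNA; the labels give neither its sequence nor what the control cells received. All groups share the 1 cell line, and the labels give no time after treatment nor whether replicates were grown as separate cultures. The p-values therefore reflect the spread among these 9 samples alone, which may be technical.

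Oxidative phosphorylation takes place in the inner mitochondrial membrane. Complexes I and II pass electrons from NADH and succinate to ubiquinone, complex III passes them to cytochrome c and complex IV to oxygen, while complexes I, III and IV pump protons that drive ATP synthesis by complex V. Complexes I, III, IV and V mix nuclear-encoded subunits with subunits made from mitochondrial DNA, whereas complex II is wholly nuclear-encoded. In liver the system supplies ATP for gluconeogenesis and urea synthesis, and many nuclear subunit genes are known to be bound by the activators NRF1 and GABP (an ETS-family factor) and by YY1.

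Promoter sequence was read for the members with a RefSeq window of 300 bases, 250 before and 50 after the gene's start (build GRCh38.p14), of which there were 67 of 86. The start lay within 100 bases of the gene start in the deposited table for 43 of the 67. Each motif was searched on both strands. The NRF1 core GCATGCGC was found in 13 of 67 windows (19.4%), against 4.6% of 13336 windows of protein-coding genes in the table. The ETS core CCGGAAG was found in 20 (29.9%, against 16%) and the YY1 core AAGATGGC in 11 (16.4%, against 4.39%). At least 1 of these 3 was present in 34 member windows (50.7%, against 22.5%). Among tested genes the gap was smaller, with 53.2% of 62 windows of tested members against 29.6% of 8719 windows of all tested genes, and 32.3% against 21.1% for the ETS core. The TATA box TATAAA was in 6 (8.96%, against 8.03%) and the GC box GGGCGG in 42 (62.7%, against 63.6%), or 61.3% against 71% among tested genes. The 3 factor motifs do not contain one another, and a match is a description of letters, not a site in use. The 250 bases before the start are shown for ATP5PF and SDHB, the 2 members with the smallest SD within groups, for NDUFA8 and COX8A, which had the largest, and for COX5B and SDHD, a member each of complexes IV and II with NRF1 core matches, with matches to the 3 factor cores in capitals.
ATP5PF, chr21:25735055-25735304, minus strand: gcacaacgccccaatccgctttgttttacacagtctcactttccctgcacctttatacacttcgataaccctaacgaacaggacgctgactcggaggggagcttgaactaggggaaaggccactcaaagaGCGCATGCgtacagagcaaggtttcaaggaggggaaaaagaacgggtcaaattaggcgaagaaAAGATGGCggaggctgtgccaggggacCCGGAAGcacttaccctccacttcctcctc
SDHB, chr1:17054033-17054282, minus strand: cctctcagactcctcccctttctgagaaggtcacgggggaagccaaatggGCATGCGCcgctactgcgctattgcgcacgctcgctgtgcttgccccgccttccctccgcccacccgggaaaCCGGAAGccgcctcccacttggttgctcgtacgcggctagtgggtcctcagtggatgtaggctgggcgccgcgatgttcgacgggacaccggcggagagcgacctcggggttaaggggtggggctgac
COX8A, chr11:63974370-63974619, plus strand: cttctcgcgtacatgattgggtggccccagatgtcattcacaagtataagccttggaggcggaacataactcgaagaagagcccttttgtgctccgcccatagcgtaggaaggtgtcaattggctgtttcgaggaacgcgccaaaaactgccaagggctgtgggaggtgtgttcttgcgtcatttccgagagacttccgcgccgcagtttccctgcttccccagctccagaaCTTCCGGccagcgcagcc
NDUFA8, chr9:122159780-122160029, minus strand: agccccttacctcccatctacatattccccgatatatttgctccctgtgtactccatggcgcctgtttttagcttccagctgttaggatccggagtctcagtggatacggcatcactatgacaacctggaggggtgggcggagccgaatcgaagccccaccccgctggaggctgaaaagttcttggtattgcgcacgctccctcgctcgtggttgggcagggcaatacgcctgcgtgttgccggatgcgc
COX5B, chr2:97645812-97646061, plus strand: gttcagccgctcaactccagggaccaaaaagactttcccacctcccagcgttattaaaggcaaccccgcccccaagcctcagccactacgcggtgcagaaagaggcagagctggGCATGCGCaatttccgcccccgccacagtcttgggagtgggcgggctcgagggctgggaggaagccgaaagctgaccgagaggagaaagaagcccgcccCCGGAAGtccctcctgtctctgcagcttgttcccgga
SDHD, chr11:112086623-112086872, plus strand: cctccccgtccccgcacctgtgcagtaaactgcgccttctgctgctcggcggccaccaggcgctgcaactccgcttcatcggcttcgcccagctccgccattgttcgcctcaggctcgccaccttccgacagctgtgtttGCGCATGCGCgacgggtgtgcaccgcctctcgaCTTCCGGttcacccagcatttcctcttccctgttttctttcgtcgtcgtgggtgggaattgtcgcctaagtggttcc
ATP5PF, whose RefSeq start lies 619 bases from the table's gene start, had 1 match to each of the 3 cores in these bases, and SDHB had 1 match each to the NRF1 and ETS cores. SDHD had 2 overlapping NRF1 core matches, 1 on each strand. NDUFA8 had none before its start and 2 NRF1 core matches when the 50 bases after the start were included.

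Depth was recovered from the deposited values as 18430000 to 23740000 fragments per library, which puts 3 fragments from a transcript of 1 kb at 0.126 to 0.163 FPKM (fragments scaled to transcript length and to the library's mapped fragments). ZMAT2 had 15.2, 12.8 and 13.2 FPKM in shZMAT2-1 and 22.1, 20.3 and 20.8 FPKM in shZMAT2-2, against 37.5, 32.8 and 39.2 FPKM in control libraries. Its mean was 37.6% and 57.7% of the control mean in the 2 arms, and the groups did not overlap (exact permutation test of 6 against 3 libraries, two-sided, p = 0.0119, the smallest that 84 assignments allow). By arm, ZMAT2 passed the limma test used below in shZMAT2-1 (log2 fold change -1.35, limma adjusted p = 0.028). It did not pass in shZMAT2-2 (-0.76, limma adjusted p = 0.113). All 10 hepatocyte markers were measured above the filter, with summed levels of 4811 to 5844 FPKM in shZMAT2-1, 4194 to 4898 FPKM in shZMAT2-2 and 3305 to 5937 FPKM in control libraries. Of the other lists, 2 of 7 fibroblast, 1 of 6 leukocyte and 1 of 4 endothelial markers found in the table passed the filter, and PTPRC, the pan-leukocyte marker, was at or below 0.0236 FPKM in every library. Nearly all leukocyte-list signal was LYZ, a lysozyme gene, at 61.6 to 70.1 FPKM in shZMAT2-1 and 43.6 to 59.8 FPKM in shZMAT2-2, against 54.4 to 130.7 FPKM in control. Its part in the results was not tested.

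The levels of the members spanned several orders of magnitude. A member was tested when it reached 1 FPKM in at least 3 libraries, which 76 of 86 did: 35 of complex I, all 4 of complex II, all 9 of complex III, 11 of complex IV and 17 of complex V. The median of the members' mean FPKM over the 9 libraries was 9.88 in complex I, 22.4 in complex II, 19.9 in complex III, 39.2 in complex IV and 29.7 in complex V, counting the tested ones. The highest levels belonged to ATP5F1B (345.9 FPKM), the catalytic beta subunit of ATP synthase, NDUFS5 (169.1 FPKM), an accessory subunit of complex I, COX5A (108 FPKM), a structural subunit of complex IV, and COX8A (82.1 FPKM), a small subunit of complex IV. Other high levels belonged to NDUFB7 (73.6 FPKM) in complex I, UQCRC1 (65.6 FPKM) and UQCRH (61.6 FPKM) in complex III, and ATP5F1C (70.0 FPKM), the gamma subunit of the central stalk, while SDHC (42.4 FPKM), a membrane anchor, was the highest of complex II.

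**Figure D1:**
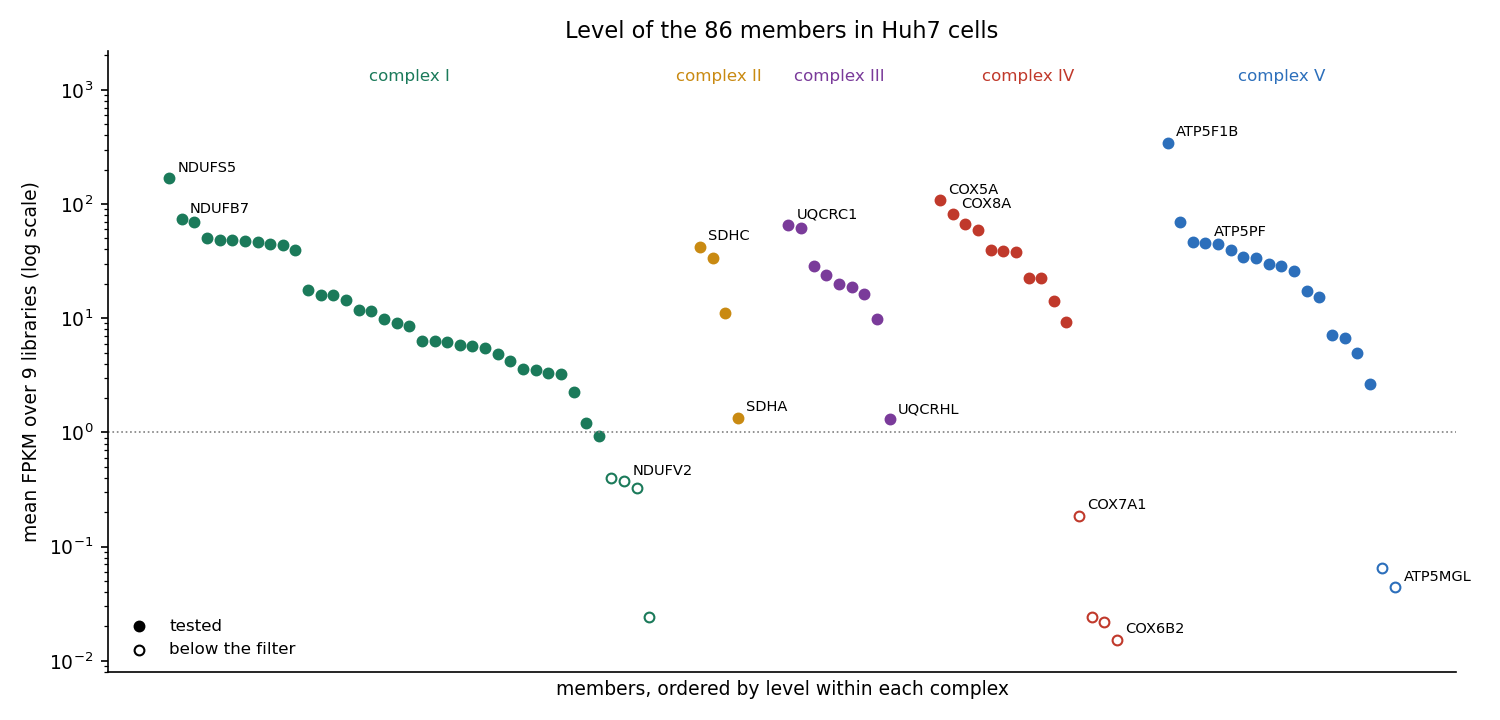
Mean FPKM over the 9 libraries (vertical log axis) for each of the 86 members, ordered by level within its complex, with filled points for the 76 tested members and open points for the 10 below the filter. ATP5F1B at 345.9 FPKM stands above all others, and the tissue-restricted isoforms of complex IV lie far below 1 FPKM.

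Subunits that occur together in 1 enzyme did not have equal FPKM. In the F1 head and stalk of ATP synthase, mean levels ran from 15.4 FPKM for ATP5F1E, the epsilon subunit, to 345.9 FPKM for ATP5F1B, a ratio of 22.4. The 3 genes for the c subunit of the membrane ring, ATP5MC1, ATP5MC2 and ATP5MC3, which encode the same mature protein, had 26.1, 29.7 and 39.6 FPKM. In complex II the iron-sulphur subunit SDHB had 33.6 FPKM and SDHD, the other anchor, 11.1 FPKM, while the flavoprotein SDHA had 1.35 FPKM. SDHA has 3 named pseudogenes in GENCODE release 29, and the share of its reads that the authors' counting could assign is not known. FPKM also depends on the length given to each gene, and the length the authors used is not given. All exons in that release cover 5126 bases for ATP5F1E and 2322 for ATP5F1B. In complex II they cover 8383 bases for SDHA, 2462 for SDHB, 2838 for SDHD and 14160 for SDHC. The part of length in these levels was not tested.

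Where complexes have alternative isoforms, the widely expressed one was measured and the tissue-restricted one stayed below the filter. COX4I1 had 67.1 FPKM and COX4I2, known from lung, 0.0243 FPKM. COX6B1 had 59.5 FPKM and the testis isoform COX6B2 0.0154 FPKM. COX8A had 82.1 FPKM and COX8C, also known from testis, 0.0218 FPKM. COX7A2 had 39.3 FPKM and COX7A2L, an assembly factor of supercomplexes, 9.21 FPKM, against 0.187 FPKM for the muscle and heart isoform COX7A1. NDUFA4, placed in complex I by its symbol but known as a subunit of complex IV, had 48.7 FPKM and its hypoxia-induced paralogue NDUFA4L2 0.401 FPKM. UQCRH, the hinge protein, had 61.6 FPKM, and its near-identical paralogue UQCRHL 1.30 FPKM, a level that reads from UQCRH could reach. COX6A1 had 22.6 FPKM and COX7B 14.1 FPKM.

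Several subunits that every complex I contains were low. NDUFV2 (0.373 FPKM), an iron-sulphur subunit of the NADH-binding module, and NDUFA7 (0.324 FPKM) stayed below the filter. NDUFA13 (0.925 FPKM) and NDUFA9 (1.2 FPKM) only just passed it. In GENCODE release 29 these 4 share 55.2% to 84.7% of their coding bases with another gene on the same strand. Of the 77 main isoforms, meaning members other than the 9 alternative isoforms and readthrough genes, 11 shared at least 50% of their coding bases. Their median level was 3.28 FPKM and 7 lay under 5 FPKM, against a median of 25.1 FPKM and 7 under 5 FPKM among the other 66. The values of the 11 are therefore uncertain as gene levels, because the authors' counting of shared bases is not given.

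In shZMAT2-1 and control the summed FPKM of the 86 members differed more between libraries than the group means differed. It was 3968, 1822 and 3770 FPKM in shZMAT2-1 replicates 1, 2 and 3, and 1496, 1850 and 2196 FPKM in the shZMAT2-2 replicates, against 3074, 1144 and 3145 FPKM in the control replicates. Replicate 2 was the lowest library of both shZMAT2-1 and control, and the 3 groups overlapped. The group means were 3187 ± 1186 FPKM in shZMAT2-1 and 1847 ± 350 FPKM in shZMAT2-2, against 2454 ± 1135 FPKM in control (SD, n = 3 each). In bulk RNA, fewer cells of a kind and less RNA per cell cannot be told apart.

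The 13 mitochondrially encoded genes took a share of the fragments that moved with these sums. It was 8.25%, 16.4% and 7.70% in shZMAT2-1 and 27.0%, 14.5% and 16.6% in shZMAT2-2, against 7.86%, 43.2% and 8.28% in control libraries. The 4 libraries with a share of 7.70% to 8.28% had the 4 highest member sums, and control replicate 2, with the highest share, had the lowest. FPKM is scaled to all fragments, so a larger mitochondrial share lowers every nuclear value. The ratio of mitochondrially encoded to nuclear member FPKM was 22.4, 97.2 and 21.9 in shZMAT2-1 and 194.7, 82.0 and 80.9 in shZMAT2-2, against 27.2, 426.9 and 28.2 in control. In complex I, where 7 subunits are mitochondrially encoded, it was 19.97 to 101.7 in shZMAT2-1 and 79.7 to 219.8 in shZMAT2-2, against 25.5 to 538.8 in control.

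**Figure D2:**
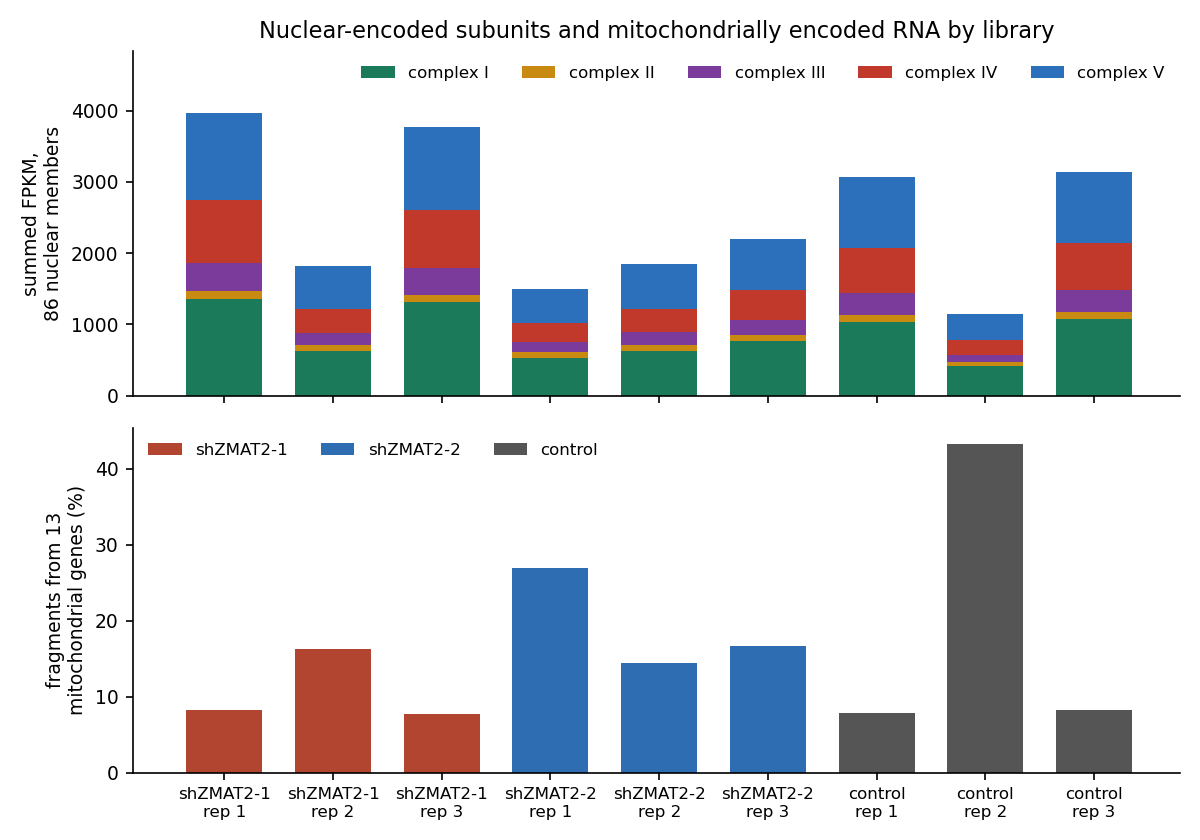
Summed FPKM of the 86 nuclear members, stacked by complex (top), and percent of fragments from the 13 mitochondrially encoded genes (bottom), for each of the 9 libraries. The member sum is lowest in control replicate 2 (1144 FPKM), where the mitochondrial share is highest (43.2%), and highest in shZMAT2-1 replicate 1 (3968 FPKM), where the share is 8.25%.

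Members moved together from library to library. Each tested member was set against its own mean log2(FPKM + 1) over the 9 libraries. The median difference over the 76 members was 0.75, -0.29 and 0.67 in shZMAT2-1 and -0.55, -0.29 and -0.08 in shZMAT2-2, against 0.35, -0.77 and 0.39 in control. For all 11245 tested genes the medians were 0.09, 0.03 and 0.13 in shZMAT2-1 and -0.14, 0.06 and 0.02 in shZMAT2-2, against 0.14, -0.48 and 0.14 in control. The members thus spread over a wider range than the bulk of genes in the same libraries. Their median SD within groups was 0.59 on the log2 scale, against 0.28 for all tested genes. The spread was seen in every complex. In control replicate 2 the median was -0.66 in complex I, -0.43 in complex II, -1.004 in complex III, -0.83 in complex IV and -0.69 in complex V.

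**Figure D3:**
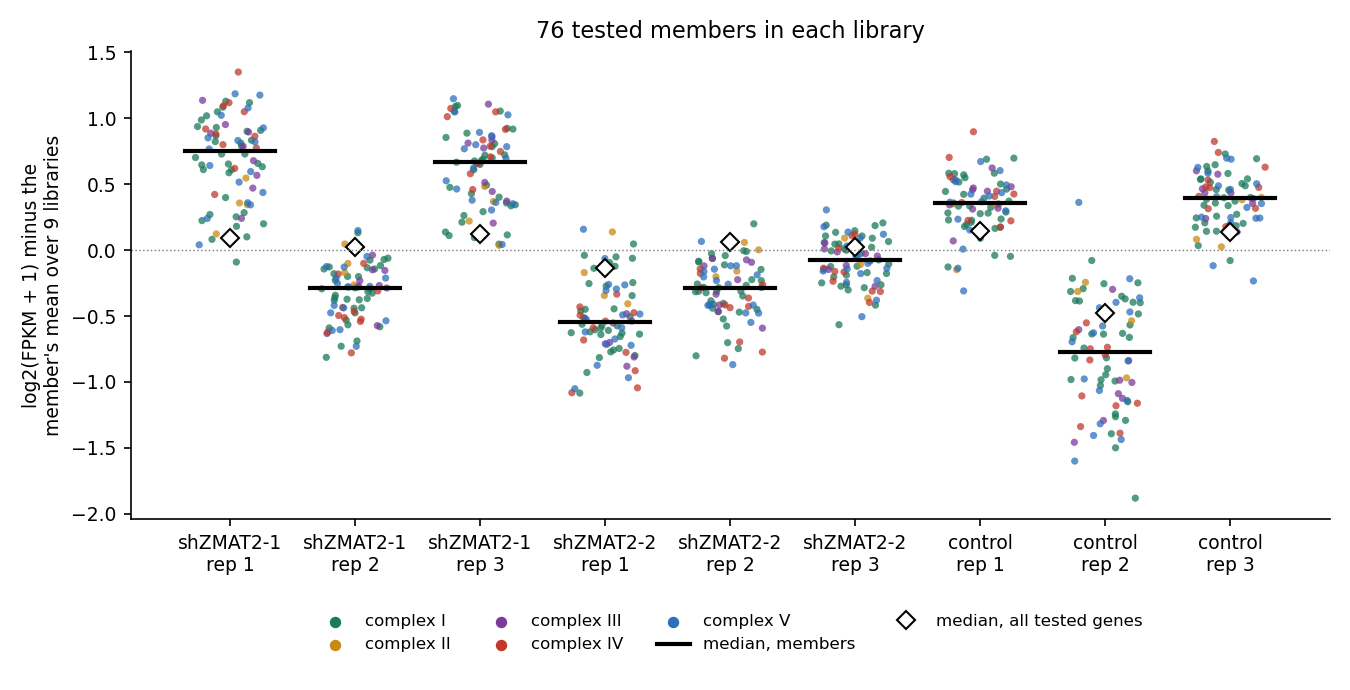
Log2(FPKM + 1) of each of the 76 tested members minus its mean over the 9 libraries (points, coloured by complex), with the median of the members (bar) and of all 11245 tested genes (diamond) per library. The member medians run from -0.77 in control replicate 2 to 0.75 in shZMAT2-1 replicate 1, while the medians of all genes lie between -0.48 and 0.14.

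Control replicate 2 was below both other control libraries for 74 of 76 members, and for 85.5% of all tested genes. The median difference from the mean of the other 2 was -1.23 for members and -0.60 for all tested genes. When each library was scaled to its nuclear genes only, the count was 58 of 76 members and 45.6% of all tested genes, with medians of -0.44 and 0.01. In shZMAT2-1, replicate 2 was below both others for 73 of 76 members, against 52% of all tested genes (medians -1.02 and -0.08). With nuclear scaling this was 68 members and 31.1% of genes, with medians of -0.69 and 0.19. The lower level of the members in these 2 libraries was therefore also present relative to other nuclear RNA. The part of RNA quality or cell state in it was not tested.

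At matched mitochondrial shares the libraries can be set side by side. Among those with 7.70% to 8.28%, the member medians were 0.75 and 0.67 in shZMAT2-1 replicates 1 and 3, against 0.35 and 0.39 in control replicates 1 and 3. Among those with 14.5% to 16.6%, they were -0.29 in shZMAT2-1 replicate 2 and -0.29 and -0.08 in shZMAT2-2 replicates 2 and 3. No control library lay in that range and no shZMAT2-2 library in the lower one, so shZMAT2-2 cannot be compared with control at a like share.

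No member passed the test in any of the 4 comparisons (limma, Benjamini-Hochberg adjusted p under 0.05 over 11245 genes). In shZMAT2-1 against control 0 of 76 were called, against a background of 0.08% of tested genes. At an unadjusted p under 0.05 there were 0 members, against 5.76% of all tested genes, and the smallest adjusted p was 0.805. In shZMAT2-2 against control 0 were called against a background of 0.587%, with 1 at an unadjusted p under 0.05 (all tested genes 7%) and a smallest adjusted p of 0.648. In the mean of both arms 0 were called against 0.542%, with 1 at an unadjusted p under 0.05 (all tested genes 6.93%) and a smallest adjusted p of 0.61. In shZMAT2-2 against shZMAT2-1 0 were called against 0%, with 9 at an unadjusted p under 0.05 (11.8%, all tested genes 4.14%) and a smallest adjusted p of 0.657. The median standard error of a member's log2 fold change was 0.40, or 0.35 in the mean of both arms.

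Estimates leaned in opposite directions in the 2 arms. In shZMAT2-1 against control, 74 of 76 estimates were above 0 (72.9% of all tested genes), with a median log2 fold change of 0.34, against 0.16 for all tested genes. By complex the medians were 0.28 in I, 0.20 in II, 0.39 in III, 0.39 in IV and 0.39 in V. In shZMAT2-2 against control, 7 of 76 were above 0 (58.4% of all tested genes), with a median of -0.28, against 0.05 for all tested genes. By complex they were -0.26, -0.08, -0.29, -0.40 and -0.25 in the same order. In the mean of both arms 48 of 76 were above 0, against 71.8% of all tested genes (median 0.05, against 0.10), and that median was negative under median-of-ratios (-0.05), quantile (-0.08) and nuclear scaling (-0.06). In shZMAT2-2 against shZMAT2-1, 2 of 76 were above 0, against 38.9% of all tested genes (median -0.65, against -0.09). The comparisons share the control or an arm and are not independent. Without control replicate 2 alone the median in shZMAT2-1 was -0.03 (all tested genes -0.05) and 27 of 76 estimates were above 0. Without shZMAT2-1 replicate 2 alone the median was 0.74, against 0.18 for all tested genes. Without shZMAT2-1 replicate 1 alone it was 0.146, against 0.148, and without shZMAT2-1 replicate 3 alone 0.19, against 0.13. With nuclear scaling, 57 of 76 in shZMAT2-1 were above 0 (median 0.13, against -0.03 for all tested genes). With median-of-ratios scaling 65 were (median 0.19, against 0.03). In shZMAT2-2, 11 of 76 were above 0 with nuclear scaling (median -0.25, against 0.06) and 4 with median of ratios (median -0.32, against -0.001).

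Libraries of shZMAT2-1 and control with the same replicate number deviated together (correlations of 0.61, 0.78 and 0.69 over the 11245 tested genes, which are not independent replicates). Replicate 2 stood apart in both groups, and each deviation was taken from a mean of 3 libraries. The 3 correlations therefore largely repeat that 1 shared difference. Correlations between libraries of unlike number were not computed, so the numbers are not shown to pair the libraries. Between libraries of the same number, 71, 68 and 68 of 76 members were higher in shZMAT2-1 than in control for replicates 1, 2 and 3. The median log2 differences were 0.35, 0.39 and 0.24. The share over all tested genes was not computed for these differences, so the counts are not shown to be particular to the members. Median deviations of all tested genes were 0.09, 0.03 and 0.13 in shZMAT2-1, against 0.14, -0.48 and 0.14 in control, so replicate 2 also differed over all genes. With the replicate number as a block on these 6 libraries, a fit chosen after seeing the data, the median standard error was 0.24. The median in this fit was 0.34, which a block holding each number once in each group cannot change. In it 1 of 76 members rose, NDUFA8 (0.80 ± 0.25 SE, limma adjusted p = 0.0496), against a background of 1.92% of tested genes. At an unadjusted p under 0.05 there were 22 of 76 members, against 14.4% of all tested genes.

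**Figure D4:**
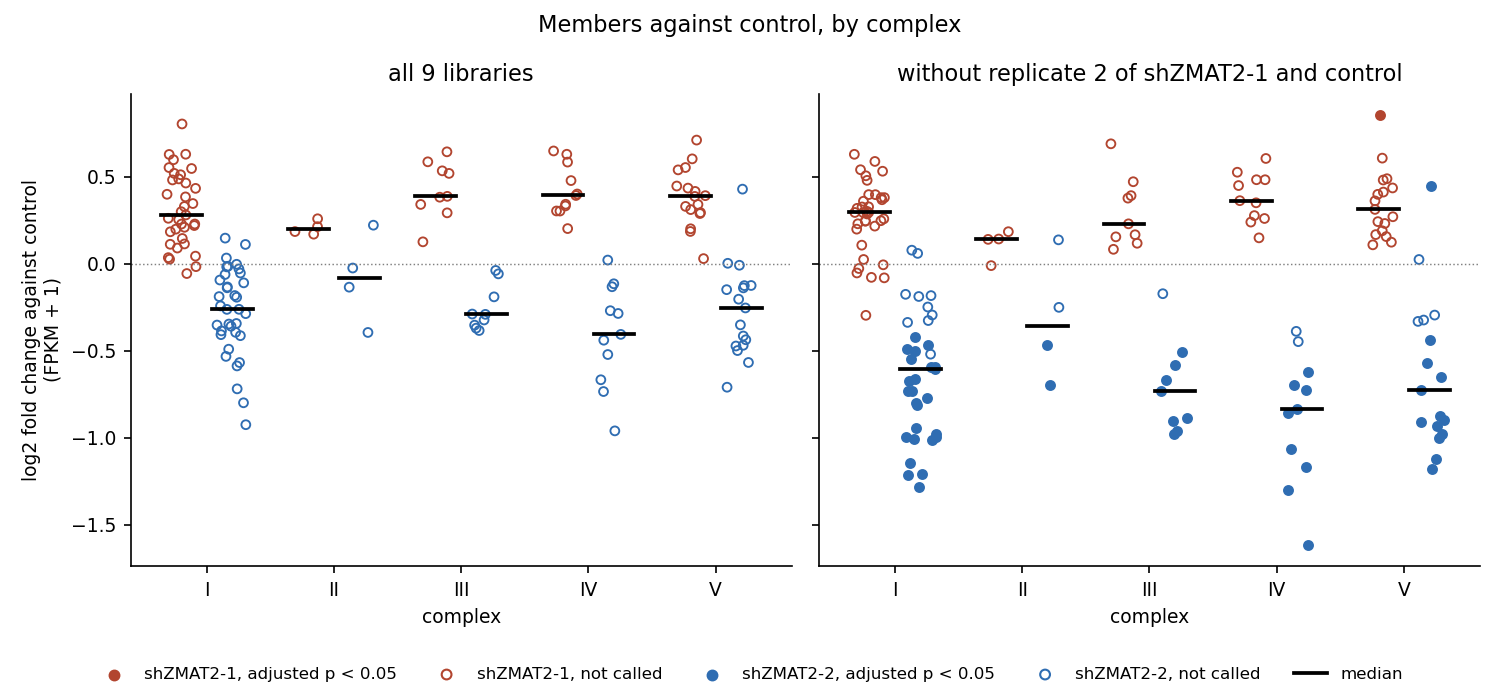
Log2 fold change against control on the log2(FPKM + 1) scale (vertical axis) for each tested member, by complex, in shZMAT2-1 (red) and shZMAT2-2 (blue), with all 9 libraries (left) and without replicate 2 of shZMAT2-1 and control (right). Bars are medians and filled points have an adjusted p under 0.05; there are none on the left, and 1 for shZMAT2-1 and 57 for shZMAT2-2 on the right.

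The comparisons were repeated without replicate 2 of shZMAT2-1 and control, the 2 libraries that stood apart within their groups. These are also the libraries in which the members themselves were low, and shZMAT2-2 replicate 1, with a mitochondrial share of 27.0%, was kept, so the counts below depend on that choice and are not independent of the members' levels. With either library left out alone, 0 members were called in any comparison. The 2 control libraries left have mitochondrial shares of 7.86% and 8.28% and the shZMAT2-2 libraries 14.5% to 27.0%, so that mitochondrial share and arm cannot be told apart in this fit. In shZMAT2-2 against control, 56 of 76 members fell (73.7%, against a background of 23.5% of tested genes) and 1, ATP5PF, rose (0.45 ± 0.13 SE, limma adjusted p = 0.024, against a background of 6.75%). The median log2 fold change was -0.68 over the members and -0.15 over all tested genes. The 13 mitochondrially encoded genes had a median of 1.42 in the same fit, and 12 of them rose.

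By complex, 25 of 35 fell in complex I, 2 of 4 in complex II, 8 of 9 in complex III, 9 of 11 in complex IV and 12 of 17 in complex V. The lowest estimate was that of COX8A (-1.61 ± 0.19 SE, limma adjusted p = 0.00051). NDUFC1, an accessory subunit of the complex I membrane arm, had -1.28 ± 0.12 (SE, limma adjusted p = 0.00019). NDUFA4 had -1.22 ± 0.14 (SE, limma adjusted p = 0.0005). Members that were not called included SDHA and SDHB in complex II, UQCRB in complex III, COX5A and COX7A2L in complex IV, and NDUFS1, the largest subunit of complex I.

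In shZMAT2-1 against control the same fit called 1 member higher, ATP5F1E (0.86 ± 0.15 SE, limma adjusted p = 0.025), against a background of 0.667%. The median was 0.30, against -0.01 for all tested genes, and 69 of 76 estimates were above 0. In the mean of both arms 1 member fell, NDUFC1 (-0.46 ± 0.11 SE, limma adjusted p = 0.047), against a background of 2.36%. In shZMAT2-2 against shZMAT2-1, 64 of 76 fell, against a background of 29.1%, with a median of -0.99 and -0.11 for all tested genes. All 11 tested members of complex IV were among the 64.

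With the mitochondrial level entered as a covariate on all 9 libraries, the member medians were 0.09 in shZMAT2-1 and -0.08 in shZMAT2-2 against control, and 0.05 and 0.12 for all tested genes. The only member called was ATP5PF, in shZMAT2-2 (0.42 ± 0.093 SE, limma adjusted p = 0.022, background of higher calls 8.38%) and in the mean of both arms (0.38 ± 0.079 SE, limma adjusted p = 0.015, background 7.94%).

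ATP5PF (ENSG00000154723, chromosome 21, 25716503 to 25735673, minus strand), coupling factor 6 of the ATP synthase peripheral stalk, varied least within groups of all tested members. It had 46.7, 50.5 and 46.8 FPKM in shZMAT2-1 and 50.8, 47.6 and 56.4 FPKM in shZMAT2-2, against 36.5, 38.9 and 38.5 FPKM in control. Every library of either arm lay above every control library, and control replicate 2 was the highest of the controls. The log2 fold change was 0.33 ± 0.18 (SE) in shZMAT2-1, with a limma adjusted p of 0.805, and 0.43 ± 0.18 (SE) in shZMAT2-2, with a limma adjusted p of 0.648. The estimates stayed above 0 under each of 23 alternatives in shZMAT2-1 (0.07 to 0.56) and 22 in shZMAT2-2 (0.36 to 0.49). Several of these, such as no trend, the replicate block or a library left out of the other arm, cannot change an estimate. The gene overlaps GABPA and JAM2 on the opposite strand, and the library protocol keeps strand, but how the authors counted it is not given.

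SDHB (ENSG00000117118, chromosome 1, 17018722 to 17054032, minus strand) also varied little. It had 36.5, 34.6 and 34.4 FPKM in shZMAT2-1 and 36.9, 33.5 and 35.7 FPKM in shZMAT2-2, against 30.1, 26.7 and 34.1 FPKM in control. The shZMAT2-1 libraries lay above the controls by a small margin, and shZMAT2-2 overlapped them. Counting members whose libraries did not overlap, 2 were higher in all shZMAT2-1 than in all control libraries (ATP5PF and SDHB, against a background of 9.1%) and 1 was higher in shZMAT2-2 than in control (ATP5PF, against 11.9%). Both shares lay under the background.

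Those lower in all shZMAT2-2 than in all control libraries were 2, NDUFC1 and ATP5F1E, against a background of 1.52%. NDUFC1 (ENSG00000109390, chromosome 4, 139266880 to 139302551) had 12.3, 3.27 and 10.9 FPKM in shZMAT2-1 and 2.83, 2.83 and 3.34 FPKM in shZMAT2-2, against 8.40, 3.59 and 9.06 FPKM in control. The 3 shZMAT2-2 libraries were low, as were shZMAT2-1 replicate 2 and control replicate 2, and the margin to the lowest control was small. Its log2 fold change in shZMAT2-2 was -0.92 ± 0.43 (SE, limma adjusted p = 0.7445). ATP5F1E (ENSG00000124172, chromosome 20, 59025475 to 59032345) had 31.6, 7.64 and 30.8 FPKM in shZMAT2-1 and 9.19, 6.85 and 9.10 FPKM in shZMAT2-2, against 16.6, 10.2 and 16.9 FPKM in control. The highest 2 libraries and the second lowest belonged to shZMAT2-1, so that arm spanned nearly the whole range.

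In shZMAT2-2 against shZMAT2-1, 3 members were lower in every library (NDUFS4, SDHA and UQCRHL, against a background of 9.28%). NDUFS4, an accessory subunit whose loss is known from Leigh syndrome, had 11.1, 12.2 and 13.01 FPKM in shZMAT2-2, against 32.1, 13.09 and 26.7 FPKM in shZMAT2-1. SDHA had 1.07, 1.08 and 1.16 FPKM in shZMAT2-2, against 1.98, 1.17 and 1.71 FPKM in shZMAT2-1. In both genes shZMAT2-1 replicate 2 lay close to the highest shZMAT2-2 library. The share of members, 3 of 76, lay under the background.

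The largest SDs within groups belonged to NDUFA8 (ENSG00000119421, chromosome 9, 122144058 to 122159779), an accessory subunit with a twin cysteine motif, and COX8A (ENSG00000176340, chromosome 11, 63974620 to 63976543). NDUFA8 had 69.6, 27.4 and 70.3 FPKM in shZMAT2-1 and 14.7, 26.4 and 29.6 FPKM in shZMAT2-2, against 52.7, 8.05 and 54.2 FPKM in control. Its highest library exceeded its lowest 8.73-fold, and all groups overlapped. COX8A had 170.1, 38.1 and 140.3 FPKM in shZMAT2-1 and 31.5, 37.0 and 49.96 FPKM in shZMAT2-2, against 124, 30.2 and 117.8 FPKM in control. Its libraries fell into a high set (replicates 1 and 3 of shZMAT2-1 and control) and a low set (the other 5). The GENCODE 29 model of COX8A shares 55.1% of its coding bases with another gene.

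**Figure D5:**
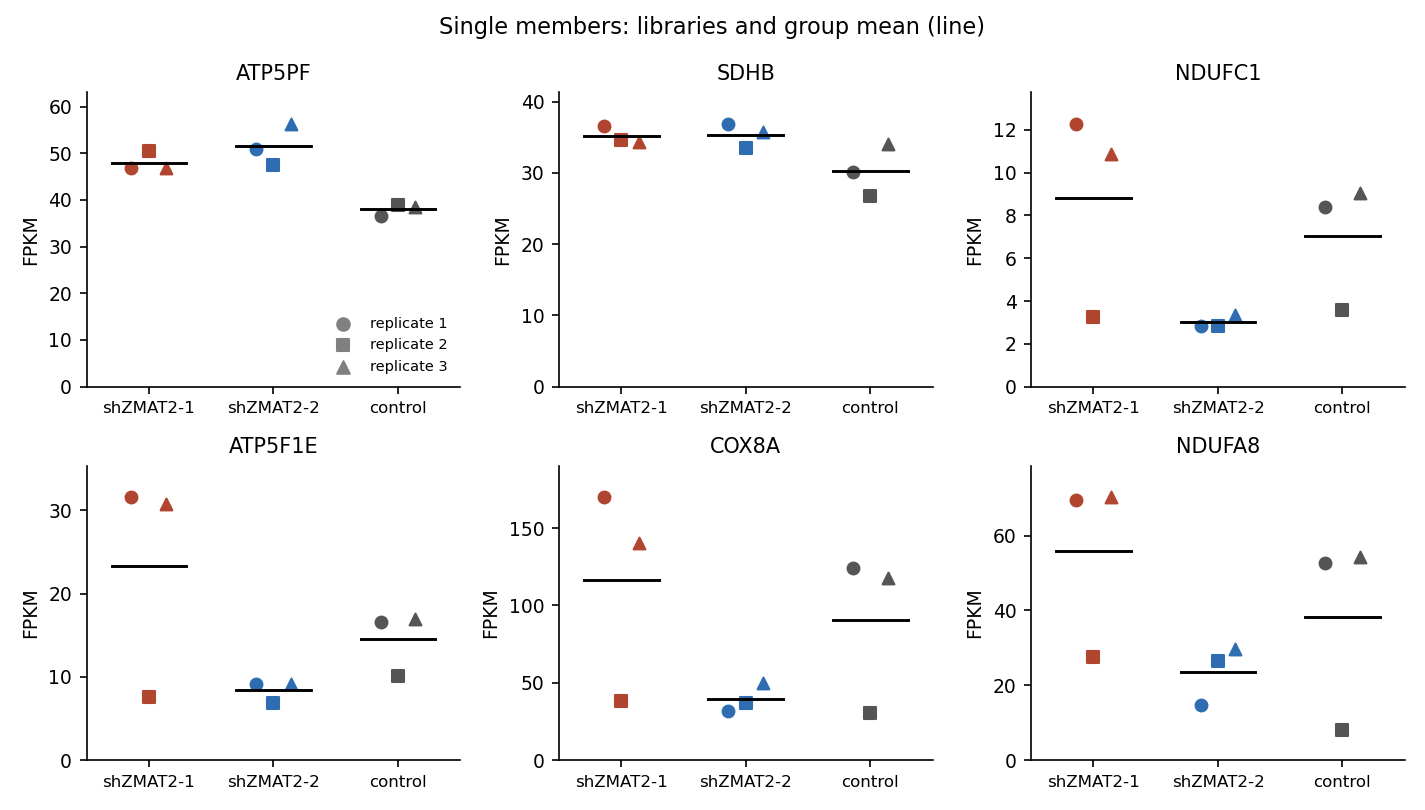
FPKM (vertical axis from 0) of ATP5PF, SDHB, NDUFC1, ATP5F1E, COX8A and NDUFA8 in each library, with marker shape for the replicate number and a line for the group mean. Replicate 2 of shZMAT2-1 and control (squares) sits low in the last 4 genes, and ATP5PF lies at 36.5 to 38.9 FPKM in control and above 46 FPKM in both arms.

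Over the tested members the highest library exceeded the lowest by a median of 3.53-fold, with a range of 1.38-fold to 8.73-fold. The ratio reached 4 or more in 26 members and stayed under 2 in 13. The 13 were ATP5ME, ATP5MF, ATP5PB and ATP5PF in complex V, SDHB in complex II, UQCRB in complex III, and NDUFA5, NDUFA10, NDUFA12, NDUFB1, NDUFB5, NDUFB8 and NDUFB10 in complex I. None of the 11 tested members of complex IV was among them. ATP5ME, subunit e of the membrane part, was, with ATP5PF, one of 2 members that control replicate 2 did not have at the lowest level of the controls, with 9.34 FPKM in control replicate 2 and 6.31 and 6.41 FPKM in the other controls. NDUFS1 had 9.98 FPKM in shZMAT2-1 replicate 2 against 8.41 and 9.35 FPKM in the other 2 libraries of that arm, but 5.77 FPKM in control replicate 2 against 11.8 and 10.4 FPKM in the other controls.

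The highest members of complexes V, I and IV showed this pattern library by library. ATP5F1B (ENSG00000110955, chromosome 12, 56638175 to 56645984) had 549, 251 and 524.1 FPKM in shZMAT2-1 and 165.4, 274.8 and 295.1 FPKM in shZMAT2-2, against 484.5, 99.6 and 469.8 FPKM in control. NDUFS5 had 262.6, 129.9 and 251.5 FPKM in shZMAT2-1 and 114.5, 127.2 and 159.2 FPKM in shZMAT2-2, against 193.3, 77.1 and 206.8 FPKM in control. COX5A had 175.6, 88.5 and 159 FPKM in shZMAT2-1 and 68.8, 88.8 and 108.5 FPKM in shZMAT2-2, against 113.6, 44.4 and 125.1 FPKM in control. In all 3 genes control replicate 2 was the lowest library and shZMAT2-1 replicate 1 the highest, and the groups overlapped. Over the tested members, control replicate 2 was lowest in 60 of 76 (70.8% of all tested genes) and shZMAT2-1 replicate 1 highest in 58 of 76 (21.6% of all tested genes).

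Other genes of the pathway were read from lists that hold no member. Of the 13 mitochondrially encoded subunits, 0 were called in either arm; the median log2 fold change was -0.48 in shZMAT2-1 and 0.46 in shZMAT2-2. All 13 estimates were below 0 in shZMAT2-1 and all 13 above 0 in shZMAT2-2, opposite to most members. MT-ND4L, a subunit of complex I, had 4913, 12910 and 4666 FPKM in shZMAT2-1 and 29800, 11210 and 10840 FPKM in shZMAT2-2, against 5679, 68340 and 5697 FPKM in control, highest in control replicate 2. Of 8 tested nuclear subunits and carriers outside the naming rule, 0 were called, with medians of 0.46 and -0.01. CYC1, cytochrome c1 of complex III, had 102.8, 73.4 and 98.02 FPKM in shZMAT2-1 and 64.3, 74.7 and 93.1 FPKM in shZMAT2-2, against 74.5, 40.01 and 76.5 FPKM in control, with overlapping groups. COX16, an assembly protein of complex IV, had 1.98, 1.69 and 1.56 FPKM in shZMAT2-1 and 1.504, 1.43 and 1.83 FPKM in shZMAT2-2, against 0.895, 1.19 and 1.00 FPKM in control. Both arms lay above all controls, as did 9.1% of all tested genes in shZMAT2-1 and 11.9% in shZMAT2-2. The mean of both arms gave 0.39 ± 0.11 (SE, limma adjusted p = 0.28). NDUFAB1, the acyl carrier protein of complex I, had 49.6, 17.5 and 48.0 FPKM in shZMAT2-1 and 10.3, 17.6 and 19.4 FPKM in shZMAT2-2, against 42.7, 9.10 and 39.4 FPKM in control, lowest in control replicate 2.

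Of the assembly factors, none was called in either arm. The medians in shZMAT2-1 and shZMAT2-2 against control were 0.27 and -0.05 for 16 genes of complex I assembly, 0.30 and -0.18 for 9 of complexes II and III, 0.18 and -0.05 for 18 of complex IV, and 0.29 and 0.01 for 4 of complex V. Estimates in the mean of both arms were 0.24 for NDUFAF6 and 0.28 for NDUFAF1 (complex I), 0.38 for TTC19 and -0.24 for LYRM7 (complex III), 0.39 for TACO1 and 0.19 for CMC2 (complex IV), and 0.23 for TMEM242 and 0.16 for ATPAF2 (complex V). Without replicate 2 of shZMAT2-1 and control, 7 of 16, 5 of 9, 7 of 18 and 1 of 4 fell in shZMAT2-2 in the same order of lists, against the 23.5% of all tested genes. Of the 8 nuclear subunits and carriers outside the naming rule, 4 fell in that fit and 2 rose (ATP5IF1 and COX16). For 12 tested regulators of respiratory chain genes the medians with all 9 libraries were 0.16 and 0.04. Without those 2 libraries, 3 of the 12 fell in shZMAT2-2 and 1, HIF1A, rose, against 23.5% and 6.75% of all tested genes. MYC had 10.8, 13.2 and 11.1 FPKM in shZMAT2-1 and 10.7, 12.8 and 12.6 FPKM in shZMAT2-2, against 8.99, 7.37 and 9.39 FPKM in control, with both arms above all controls (mean of both arms 0.43 ± 0.15 SE, limma adjusted p = 0.495). MYC and COX16 were named for their small p in that mean. Of all tested genes, 9.1% lay above all controls in shZMAT2-1 and 11.9% in shZMAT2-2. HIF1A, the hypoxia-responsive factor, had 73.2, 166.5 and 77.8 FPKM in shZMAT2-1 and 206.1, 199.3 and 139.3 FPKM in shZMAT2-2, against 82.5, 123.4 and 79.0 FPKM in control; its log2 fold change in shZMAT2-2 was 0.94 ± 0.35 (SE, limma adjusted p = 0.541). NRF1 had 5.84, 4.65 and 6.38 FPKM in shZMAT2-1 and 3.55, 4.39 and 4.27 FPKM in shZMAT2-2, against 5.88, 1.97 and 5.94 FPKM in control. ESRRA, an activator of mitochondrial genes, had 14.6, 5.29 and 14.7 FPKM in shZMAT2-1 and 3.28, 5.05 and 6.33 FPKM in shZMAT2-2, against 10.2, 2.20 and 11.0 FPKM in control. Both were lowest in control replicate 2, and their groups overlapped.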

How the data were processed

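Poly(A) RNA from 9 Huh7 libraries in 3 groups of 3 was sequenced with a strand-specific kit, per the labels' protocols. The authors deposited FPKM per gene for 27421 genes. The submitters' processing notes list HISAT, featureCounts and DESeq2 and no versions. Which build was used was not given in the sources used here. Gene coordinates are those of the deposited table, and all 86 members were found by ID in GENCODE release 29. How reads on shared bases were counted is not given either.

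The 11245 genes that reached 1 FPKM in 3 or more libraries were fitted on the log2(FPKM + 1) scale, from the deposited FPKM, with limma 3.58.1 (trend on) in R 4.3.3. The model held the 9 libraries and no term but group. A fold change on this scale understates the change of low genes. Calls needed an adjusted p (two-sided, Benjamini-Hochberg) under 0.05. ZMAT2 was also compared by an exact permutation test. Depth was recovered from 1542 single-exon genes, to 10000 fragments. No pair of replicates held identical columns. Replicate numbers have no stated source. All tested genes' deviations from group means correlated above 0.1 in all 3 same-numbered pairs of shZMAT2-1 and control (0.61 to 0.78). They did not do so in all pairs with shZMAT2-2. Correlations between libraries of unlike number were not computed, and replicate 2 stood apart in both shZMAT2-1 and control. The numbers are therefore not shown to pair libraries. The mitochondrial share is the sum of FPKM times gene length over the 13 genes, as a percent of all fragments. Nuclear scaling divides each library by its sum over nuclear genes.

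Members, lists and tests were chosen with earlier results of these data known, so no test was made on a list. The naming rule took, per complex, the 2 highest and the lowest measured levels and the 2 smallest p in the mean of both arms; the 5 smallest p in each comparison and every call; the isoform sets; the SDH genes; and the 3 largest and 3 smallest SDs within groups. From other lists it took the 2 smallest p. Further members, NDUFAB1, NRF1 and ESRRA were named after their values were seen. In simulated data with 200 of 11245 genes changed (10 draws, mean of both arms), 56.6% were recovered at a log2 change of 1 and 94.2% at 2, with a mean of 8.1 false calls. The changed genes were drawn from all tested genes, with independent errors. The median SD within groups was 0.28 for all tested genes and 0.59 for members, which also moved together. The rates are therefore not those of the members. The alternatives were another pseudocount (0.1), other filters (none, 5 FPKM), 4 other scalings, no trend, fewer groups or genes, a mitochondrial covariate, a replicate block and left-out libraries. Promoter windows are from RefSeq. Python 3.11.15 with pandas 2.3.3, scipy 1.17.1 and matplotlib 3.10.9 was used for the other steps.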

Additional observations from a re-analysis of the deposited data

How the results depend on the processing

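Under 23 alternatives, 1 of them chosen after seeing the data, no member count changed except in 3 fits. Without replicate 2 of shZMAT2-1 and control together, 1 member was called in shZMAT2-1, 57 in shZMAT2-2, 1 in the mean of both arms and 64 between the arms. With the mitochondrial covariate, 1 was called in shZMAT2-2 and 1 in the mean. With a replicate block on shZMAT2-1 and control alone, 1 was called in shZMAT2-1. The cause was not tested. With 1 library left out the counts stayed at 0. The 84 medians each moved by less than the SD between libraries (0.52), though with libraries left out they ran from -0.03 to 0.74 in shZMAT2-1, -0.68 to -0.05 in shZMAT2-2, -0.38 to 0.23 in the mean and -0.99 to -0.46 between the arms. Several alternatives, such as the replicate block or a library left out of the other arm, cannot change a median. Of 792 estimates of named members in the mean contrast, 124 uncalled ones had another sign.

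ZMAT2 in the mean of both arms was -1.06 (limma adjusted p = 0.014). With TPM it was -0.98 (limma adjusted p = 0.9996), and with 1 library left out -1.13 to -1.004 (limma adjusted p 0.0044 to 0.095), losing its call without shZMAT2-1 replicate 3, shZMAT2-2 replicate 2 or 3, or control replicate 1 or 3. Same-numbered libraries of shZMAT2-2 and the other groups correlated at -0.76 to 0.63, so no pairing of that arm by number was seen. With a replicate block on all 9 libraries 0 members were called in each comparison. The block holds each number once in each group, so it cannot change the medians.

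Precision is limited by 3 libraries a group and by a member spread of 0.59 on the log2 scale.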
